A study of Homo sapiens with 9 samples.

Results

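β-catenin, encoded by CTNNB1, the proteins that mark it for destruction and related casein kinases were described in MDA-MB-231 cells treated with a SIN3 decoy peptide. The genes were chosen by name and role. They are CTNNB1 itself, the scaffolds APC and AXIN1, the glycogen synthase kinases GSK3A and GSK3B, the casein kinases CSNK1A1, CSNK1G1, CSNK1G2 and CSNK1G3, and BTRC, the ubiquitin ligase subunit that recognizes phosphorylated β-catenin. Of these 10 genes, 9 were measured by a probe paired with a single gene symbol, out of 18417 genes measured in that way. CSNK1G3 was not analysed here, and no gene had more than 1 such probe among the 9.

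MDA-MB-231 is an established human line of triple negative breast cancer, which lacks hormone receptors and ERBB2 amplification, and its cells have a mesenchymal shape. Cells were treated for 24 hours with 2.5 μM SID, or with the scrambled peptide SCR, or were left untreated (UT). The SID peptide joins the cell-penetrating TAT sequence to the SIN3 interaction domain of MAD1 and competes with proteins that dock on the PAH2 domain of SIN3A, a scaffold of histone deacetylase complexes. SCR carries the same TAT sequence before a shuffled domain, and UT received no peptide. Total RNA of 3 replicates of each group was hybridized to 1 Affymetrix human gene array each, which gives 9 arrays. The series description calls the replicates independent, whereas the methods speak of 2 biological replicates and do not say which arrays these were. The comparisons ask whether RNA of the chosen genes differed after SID, against SCR as the peptide control and against UT.

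In cells without a Wnt signal, AXIN1 and APC hold β-catenin beside its kinases. Casein kinase 1α, the product of CSNK1A1, phosphorylates it first and GSK3 continues, after which the ligase with BTRC ubiquitinates it and the proteasome degrades it. A Wnt signal stops this sequence, and β-catenin then accumulates and enters the nucleus, where it binds TCF and LEF factors. The γ casein kinases encoded by CSNK1G1 and CSNK1G2 sit at the membrane, where they phosphorylate the coreceptor LRP6. The amount of β-catenin is thus set largely at the protein level, whereas the arrays measured RNA alone.

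All values are log2 signals as normalized and deposited by the authors, so that a difference of 1 is a 2-fold change. They ran between 3.75 and 14.9 over all probes, with a median between 7.68 and 7.77 on each array. Signals of different genes come from different probes and were not set against each other. The arrays fell into 2 sets. Replicates 1 and 2 of SID and SCR formed one set, and replicate 3 of both groups joined the 3 UT arrays in the other. Across probes, arrays of the same set correlated at 0.963 or more and arrays of different sets at 0.908 to 0.929. Of the 5 genes listed as markers of MDA-MB-231, all 5 were higher in the first set, including CD44 at 13.17 to 13.25 on those 4 arrays against 10.68 to 10.84 on the other 5, and AXL at 12.95 to 13.31 against 9.95 to 10.14. The epithelial gene EPCAM, which these cells should lack, was at 9.74 to 10.94 in the first set and at 6.14 to 6.87 in the second. Of the 2 genes of other cell types, the leukocyte gene PTPRC lay between 4.84 and 5.07 on every array, and the endothelial gene PECAM1 was at 6.33 to 7.96 in the first set, highest in SCR replicates 1 and 2, and at 5.73 to 6.18 in the second. CDH1, which encodes E-cadherin, was at 7.05 and 7.26 in SID replicates 1 and 2, against 10.13 and 11.08 in SCR replicates 1 and 2 and 6.73 to 6.91 on the other 5 arrays. Of the other genes expected to be low, FOXA1 was at 8.25 to 9.64 in the first set and at 9.89 to 10.03 in the second. ESR1, PGR and ERBB2 overlapped between the sets. They lay at 6.76 to 7.23, 5.61 to 5.75 and 9.15 to 9.64 over all arrays, in that order. The column headings of the study give SCR replicate 3 a longer treatment than the labels do, and the labels were followed here. They give no reason for the split, so for SID and SCR the values of replicates 1 and 2 and of replicate 3 are given side by side below. The UT arrays belong to 1 set, so that group and set cannot be told apart where replicates 1 and 2 are compared with UT. Whether these marker differences have a part in the results below was not tested.

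With all 9 arrays in 1 limma fit and p adjusted over 19460 probes, none of the 9 genes passed an adjusted p of 0.05 between SID and SCR. The smallest adjusted p was 0.657, for APC and AXIN1, and 0% of all probes passed. At an unadjusted p under 0.05 there were 2 of the 9 genes, APC and AXIN1, against 7.57% of all probes (1474). This fit had no term for the array set, so its spread within SID and SCR includes the difference between the sets. With the array set as a block, 3 of the 9 genes and 4034 probes had an unadjusted p under 0.05 in limma. The smallest adjusted p was then 0.171. Replicates 1 and 2 nevertheless showed differences that replicate 3 did not. In a fit on these 4 arrays alone, 4 of the 9 genes passed an adjusted p of 0.05, beside 13.6% of all probes. AXIN1 was higher in SID than in SCR, and APC, GSK3B and CSNK1G1 were lower. A call also needed a change of more than 2-fold, which APC alone reached among the 9 genes, beside 4.41% of all probes (859). Array weights estimated by limma also left APC as the 1 gene called (−1.11, adjusted p = 0.00254), beside 3.91% of all probes. They were 0.138 for SID replicate 3 and 0.176 for SCR replicate 3, against 0.700 to 6.92 for the other arrays. Replicate 1 had 3.49 in SID and 2.95 in SCR, against 0.747 and 0.700 for replicate 2. This fit thus rests largely on replicate 1 of each peptide and is no separate look at the same arrays. The estimation of the weights raised 1 warning. The fit on replicates 1 and 2 was chosen with earlier results of these arrays known, and it compares 2 arrays with 2.

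CTNNB1, on chr3:41199505-41240443, had the narrowest range of the 9 genes. It measured 13.08, 12.98 and 12.90 in SID replicates 1, 2 and 3, against 13.16, 13.14 and 12.87 in SCR and 12.98, 12.83 and 12.95 in UT. SID and SCR overlapped, and all 9 arrays lay within 0.33. The mean difference between SID and SCR was −0.07 ± 0.10 (SE, n = 3 each), with a 95% interval of −0.30 to 0.16 and an adjusted p of 0.917 in limma. For replicates 1 and 2 alone it was −0.12, with an interval of −0.35 to 0.11 and an adjusted p of 0.427. Both intervals leave out a 2-fold change in either direction.

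APC, the large scaffold that is lost in most colorectal tumours, was the gene with the lowest value of SID minus SCR. Its signal was 7.82, 7.24 and 8.46 in SID replicates 1, 2 and 3, against 8.88, 8.83 and 8.45 in SCR and 8.46, 8.29 and 8.46 in UT. The first and second SID arrays lay below every other array, and the third was level with its SCR partner, so SID and SCR overlapped. SID minus SCR was −1.06, −1.59 and 0.00. Over 3 replicates it averaged −0.88 ± 0.28 (SE), with an interval of −1.54 to −0.22 and an adjusted p of 0.657 in limma. APC was 2.50-fold lower in SID cells in replicates 1 and 2 alone, with a log2 difference of −1.32 ± 0.21 (SE, n = 2 each) and an adjusted p of 0.0320. There 1.72% of all probes had a lower difference. The SID values of these replicates, 7.82 and 7.24, lay near or below the array medians of 7.68 to 7.77. Without SID replicate 3 alone, APC was called on the remaining 8 arrays (−1.19, adjusted p = 0.0162), beside 3.33% of all probes. Without SCR replicate 3 instead, APC did not pass (−1.01, adjusted p = 0.172 in limma).

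AXIN1, the scaffold thought to limit how much complex can form, ran the other way. It was at 9.63, 9.76 and 9.79 in SID, against 8.93, 9.11 and 9.68 in SCR and 9.63, 9.75 and 9.66 in UT. SCR replicates 1 and 2 were the low arrays, and the SID arrays lay between −0.05 and 0.11 of the UT mean. SID minus SCR was 0.70, 0.65 and 0.12, above 0 in all 3 replicates. Of the 9 genes, AXIN1 and CSNK1G2 alone had a difference of one sign in every replicate, beside 26.8% of all probes. The mean difference was 0.49 ± 0.18 (SE), with an interval of 0.08 to 0.90 and an adjusted p of 0.657. AXIN1 rose 1.60-fold in SID cells in replicates 1 and 2 alone, by 0.68 ± 0.11 (SE, n = 2 each, adjusted p = 0.0323 in limma). Without SCR replicate 3, AXIN1 also passed on the remaining 8 arrays, at 0.71 and an adjusted p of 0.0151, beside 2.95% of all probes. Without SID replicate 3 instead, AXIN1 did not pass (0.46, adjusted p = 0.244 in limma).

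**Figure D1:**
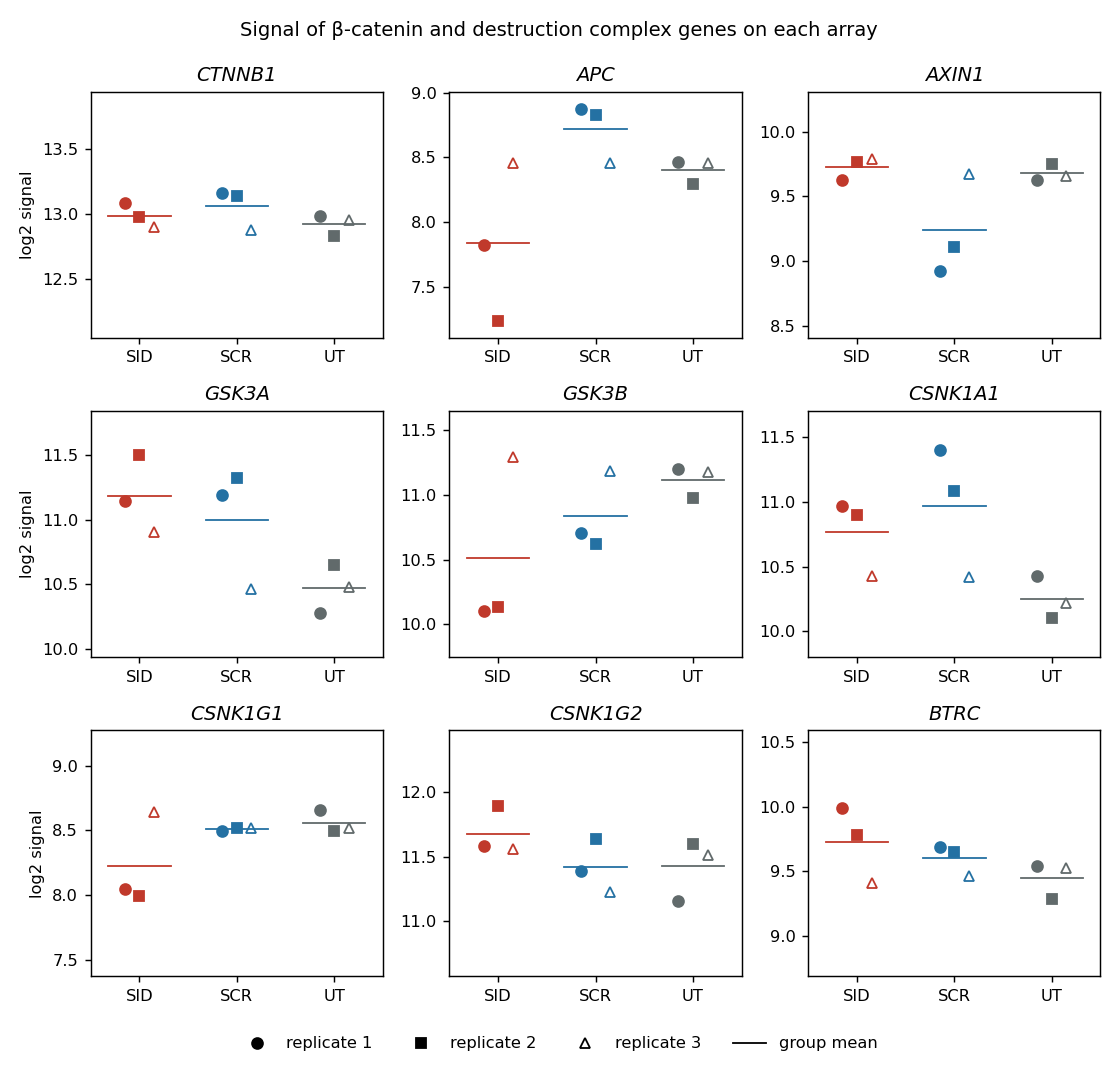
The log2 signal (vertical axis) of the 9 measured genes on each array, for SID, SCR and UT, with replicate 3 as open triangles and the group mean as a line. All panels span the same width, and APC replicates 1 and 2 of SID, at 7.82 and 7.24, lie below every other APC value.

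The kinase genes did not move together. GSK3B was at 10.11, 10.14 and 11.29 in SID, against 10.70, 10.62 and 11.18 in SCR and 11.20, 10.97 and 11.18 in UT. SID replicates 1 and 2 were the lowest arrays and SID replicate 3 the highest. SID minus SCR was −0.60 and −0.49 in replicates 1 and 2 and 0.11 in replicate 3, which left a mean of −0.32 ± 0.32 (SE, adjusted p = 0.857 in limma). GSK3B fell 1.46-fold in SID cells in replicates 1 and 2 alone (−0.54 ± 0.08, SE, n = 2 each, adjusted p = 0.0301 in limma). It also passed without SID replicate 3 (−0.72, adjusted p = 0.0471), beside 10.4% of all probes. Without SCR replicate 3 instead, GSK3B did not pass (−0.15, adjusted p = 0.876 in limma).

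GSK3A encodes the α isoform, which can stand in for GSK3β in the complex. It measured 11.15, 11.50 and 10.91 in SID, against 11.19, 11.32 and 10.46 in SCR and 10.28, 10.65 and 10.48 in UT. The 3 SID arrays lay above the 3 UT arrays but overlapped with SCR. The mean difference between SID and SCR was 0.19 ± 0.25 (SE), with an interval of −0.39 to 0.77 and an adjusted p of 0.912. GSK3A differed in replicates 1 and 2 alone by 0.07 (adjusted p = 0.815 in limma), while GSK3B passed the test there. The difference between the isoforms was not tested.

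CSNK1A1, whose product makes the priming phosphorylation, was at 10.97, 10.90 and 10.43 in SID, against 11.40, 11.09 and 10.42 in SCR and 10.42, 10.10 and 10.22 in UT. The first and second arrays of both peptides were above all others, and replicate 3 of both lay at the top of the UT range. SID minus SCR was −0.43, −0.19 and 0.00, with a mean of −0.21 ± 0.26 (SE, adjusted p = 0.904 in limma) and −0.31 in replicates 1 and 2 (adjusted p = 0.213).

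The γ casein kinase genes differed in pattern. CSNK1G1 was at 8.05, 7.99 and 8.64 in SID, against 8.50, 8.52 and 8.51 in SCR and 8.65, 8.49 and 8.52 in UT. SCR and UT arrays lay within 0.16 of one another, SID replicates 1 and 2 lay below them, and SID replicate 3 lay among them. The difference between SID and SCR was −0.45, −0.53 and 0.12, with a mean of −0.29 ± 0.16 (SE, adjusted p = 0.694 in limma). CSNK1G1 fell 1.40-fold in replicates 1 and 2 alone (−0.49 ± 0.08, SE, n = 2 each, adjusted p = 0.0332 in limma). It passed without SID replicate 3 as well (−0.49, adjusted p = 0.0125). Without SCR replicate 3 instead, CSNK1G1 did not pass (−0.28, adjusted p = 0.561 in limma). The study lists CSNK1G1 as at least 2-fold lower after SID, by its own program, among genes it selected on these arrays. No fit here reached 2-fold for CSNK1G1, and its direction is not independent evidence.

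CSNK1G2 did not separate the array sets. Its signal was 11.58, 11.89 and 11.56 in SID, against 11.39, 11.64 and 11.23 in SCR and 11.16, 11.60 and 11.52 in UT, and all groups overlapped. SID minus SCR was 0.19, 0.25 and 0.34. The mean was 0.26 ± 0.16 (SE), with an interval of −0.12 to 0.64 and an adjusted p of 0.720 in limma.

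BTRC, which encodes β-TrCP, measured 9.99, 9.79 and 9.41 in SID, against 9.69, 9.65 and 9.47 in SCR and 9.54, 9.29 and 9.53 in UT. The order of SID and SCR turned between replicate 1, at 0.30, and replicate 3, at −0.06. The mean difference of BTRC was 0.13 ± 0.16 (SE, adjusted p = 0.899 in limma).

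Described as a group, 5 of the 9 genes had a negative mean difference between SID and SCR, beside 44.8% of all probes. The median over the 9 genes was −0.07, and 0.02 over all probes. The size of the difference in replicates 1 and 2, sign aside, had a median of 0.31 for the 9 genes and 0.18 for all probes. SID and SCR did not overlap in these replicates for 7 of the 9 genes, beside 58.9% of all probes, and over all 3 replicates for 0 of 9, beside 5.66%. APC and AXIN1 differed by more than 0.5 with one sign in both replicates 1 and 2, beside 13.8% of all probes. In replicate 3, 0 of the 9 genes differed by more than 0.5, beside 1.33%. There 8 were higher in SID and 1 lower (11.1%), beside 44.9% of all probes lower. The median was 0.11, and 0.01 over all probes. Among the 8, APC, CSNK1A1 and CTNNB1 were higher by 0.0020, 0.0033 and 0.023 alone, with 1 array per group.

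The promoters of the 4 genes that passed in replicates 1 and 2 are shown so that their sequence can be set beside their opposite signs of SID minus SCR. Each line gives the 250 bases before a transcription start on the gene's own strand, from RefSeq on GRCh38.p14, and APC has a start for each of 2 promoters. APC spans chr5:112707498-112846239, AXIN1 chr16:287440-352723, GSK3B chr3:119821321-120094447 and CSNK1G1 chr15:64165525-64356173. The windows are chr5:112707248-112707497 and chr5:112737635-112737884 for the first and second APC starts, chr16:352724-352973 for AXIN1, chr3:120094448-120094697 for GSK3B and chr15:64356174-64356423 for CSNK1G1. The AXIN1, GSK3B and CSNK1G1 windows lie on the minus strand and the APC windows on the plus strand. Capitals mark matches on either strand to the GC box bound by SP factors, GGGCGG, and to the core TGTCA that TGIF1 binds.
APC start 1: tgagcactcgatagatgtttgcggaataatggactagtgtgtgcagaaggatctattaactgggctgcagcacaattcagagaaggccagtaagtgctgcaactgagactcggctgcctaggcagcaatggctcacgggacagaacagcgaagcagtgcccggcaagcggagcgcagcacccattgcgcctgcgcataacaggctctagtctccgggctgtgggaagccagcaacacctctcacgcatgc
APC start 2: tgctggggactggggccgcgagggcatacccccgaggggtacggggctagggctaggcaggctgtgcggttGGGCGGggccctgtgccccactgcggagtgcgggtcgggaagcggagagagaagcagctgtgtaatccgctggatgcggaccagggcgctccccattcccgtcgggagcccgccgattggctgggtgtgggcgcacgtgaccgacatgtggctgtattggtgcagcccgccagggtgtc
AXIN1: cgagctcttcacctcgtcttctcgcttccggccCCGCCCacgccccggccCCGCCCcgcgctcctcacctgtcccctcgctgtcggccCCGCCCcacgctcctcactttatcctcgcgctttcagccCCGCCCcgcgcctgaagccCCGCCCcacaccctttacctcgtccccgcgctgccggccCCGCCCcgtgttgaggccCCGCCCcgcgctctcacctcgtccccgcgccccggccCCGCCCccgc
GSK3B: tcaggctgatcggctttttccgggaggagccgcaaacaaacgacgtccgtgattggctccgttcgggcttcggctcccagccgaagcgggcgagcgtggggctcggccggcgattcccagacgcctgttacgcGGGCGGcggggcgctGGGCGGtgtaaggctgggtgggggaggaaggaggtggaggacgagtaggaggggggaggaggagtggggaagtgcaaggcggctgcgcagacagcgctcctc
CSNK1G1: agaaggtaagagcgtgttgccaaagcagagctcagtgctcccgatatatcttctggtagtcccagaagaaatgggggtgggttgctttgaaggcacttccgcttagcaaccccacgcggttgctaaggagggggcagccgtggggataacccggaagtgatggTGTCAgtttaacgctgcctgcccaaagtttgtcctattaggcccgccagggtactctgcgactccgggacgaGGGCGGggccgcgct

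AXIN1 had 8 GC boxes in its window, all in the reverse orientation CCGCCC, and a GC content of 77.6%. At least 1 GC box was found in 42.6% of 35116 windows of the same length, with a mean of 0.972 per window and a median GC content of 58%. APC had 0 at its first start and 1 at its second, GSK3B had 2 and CSNK1G1 had 1. TGTCA was found in 34% of all windows. Among these 4 genes it was in the CSNK1G1 window alone, 87 bases before the start. GSK3A and CSNK1A1 also held 1 match each. The TCF letters CCTTTGAA, CCTTTGAT, CCTTTGTA and CCTTTGTT, searched on both strands, were in 3.68% of all windows and in none of the 10 windows of the 8 genes with one, CSNK1G3 included. BTRC and CSNK1G2 had no entry. The motifs do not overlap one another in the printed windows. A match is a description of letters, and the arrays did not measure these promoters.

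Against UT, none of the 9 genes passed an adjusted p of 0.05 in the fit on all arrays. The smallest adjusted p was 0.388 in SID and 0.332 in SCR, and 0% of all probes passed in either comparison. These comparisons share the UT arrays. GSK3A had the largest difference of SID minus UT, 0.72 ± 0.25 (SE), with an interval of 0.13 to 1.30 and an adjusted p of 0.388 in limma. It was the 1 gene with an unadjusted p under 0.05 there, beside 12.5% of all probes. For SCR minus UT there were 2 such genes, beside 14.4% of all probes. These were CSNK1A1, at 0.72 ± 0.26 (SE, adjusted p = 0.332), and AXIN1, at −0.44 ± 0.18 (SE, adjusted p = 0.339).

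Set against the mean of the UT arrays, replicates 1 and 2 of the peptides fell into different patterns by gene. APC was below UT in SID, at −0.58 and −1.17, and above it in SCR, at 0.47 and 0.42. AXIN1 was near UT in SID, at −0.05 and 0.08, and below it in SCR, at −0.75 and −0.57. GSK3B was below UT in both, at −1.01 and −0.98 in SID and −0.41 and −0.50 in SCR. CSNK1G1 was below UT in SID, at −0.51 and −0.57, and near it in SCR, at −0.06 and −0.03. GSK3A and CSNK1A1 were above UT in both peptides. GSK3A lay 0.68 and 1.03 above in SID and 0.72 and 0.86 above in SCR, and CSNK1A1 lay 0.72 and 0.65 above in SID and 1.15 and 0.84 above in SCR. With replicates 1 and 2 alone, 6 of the 9 genes passed an adjusted p of 0.05 for SID minus UT, beside 39.6% of all probes, and 4 for SCR minus UT, beside 36.8%. None of them was past 2-fold, beside 13.3% of all probes called for SID and 11.4% for SCR. APC, GSK3B, CSNK1G1 and BTRC passed an adjusted p of 0.05 for SID minus UT without SID replicate 3 alone, at −0.87, −0.996, −0.54 and 0.44, beside 22.9% of all probes. AXIN1, GSK3A and CSNK1A1 did so for SCR minus UT without SCR replicate 3 alone, at −0.66, 0.79 and 0.995, beside 13.8%. The array weights nearly drop replicate 3 of both peptides and lean on replicate 1 of each, while UT replicate 3 weighs most, at 6.92. With them 1 gene was called in each comparison. These were GSK3B for SID minus UT (−1.01, adjusted p = 2.72e-04 in limma), beside 12.3% of all probes, and CSNK1A1 for SCR minus UT (1.06, adjusted p = 4.54e-04), beside 10.9%. Replicate 3 lay between −0.04 and 0.18 of the UT mean for 8 genes in SID, and between −0.20 and 0.17 for all 9 in SCR. The other gene in SID was GSK3A, 0.44 above UT.

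**Figure D2:**
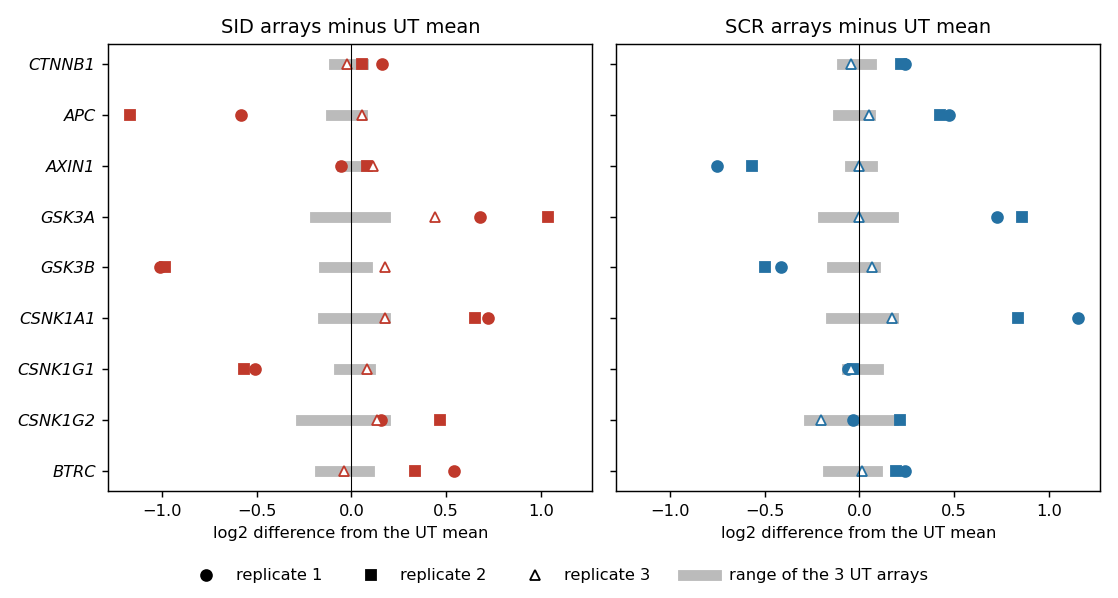
Each SID array (left) and each SCR array (right) minus the mean of the UT arrays (horizontal axis, log2) for the 9 genes, with the range of the 3 UT arrays in grey. Replicate 3, drawn as open triangles, lies in or near the grey range in both panels except for GSK3A in SID at 0.44, whereas replicates 1 and 2 spread between −1.17 and 1.15.

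Other parts of the same machinery were described with 2 lists. The first held partners of the destruction complex (its phosphatase, its tankyrase and Dishevelled regulators and the cullin ligase), of which 19 of 20 were measured. In the fit on all arrays 0 of 19 passed an adjusted p of 0.05 between SID and SCR, beside 0% of all probes. The mean was higher in SID for 11 and lower for 8 (42.1%), beside 44.8% of all probes lower, with a median of 0.04. The highest values belonged to DVL1 and CSNK1D and the lowest to CUL1 and GSKIP. DVL1, a Dishevelled protein that disarms the complex after a Wnt signal, had SID minus SCR at 0.72, 0.40 and −0.04. It was the 1 gene of this list (5.26%) to pass in replicates 1 and 2 alone, where it was higher in SID than in SCR (adjusted p = 0.0455 in limma), beside 13.6% of all probes. CSNK1D, casein kinase 1δ, was higher in SID in each replicate, by 0.37, 0.27 and 0.18 (mean 0.27, adjusted p = 0.670). CUL1, the cullin backbone of the β-TrCP ligase, was at −0.37, −0.71 and 0.15 (mean −0.31, adjusted p = 0.732). GSKIP, which binds GSK3β, was at −0.60, 0.01 and 0.03, so that its mean of −0.19 rested on replicate 1.

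The second list held partners of β-catenin itself at junctions, in nuclear export and in the nucleus, of which 14 of 15 were measured. Here 3 had a higher and 11 a lower mean in SID (78.6%), beside 44.8% of all probes lower. The median was −0.16, beside 0.02 over all probes. In the fit on all arrays 0 passed, beside 0% of all probes. By replicate, 8, 12 and 6 of the 14 were lower in replicates 1, 2 and 3, beside 49.4%, 39.2% and 44.9% of all probes. CHD8, a chromatin remodeller that binds β-catenin and dampens its targets, was at −0.47, −0.91 and 0.10 for SID minus SCR. EP300, the acetyltransferase that β-catenin recruits, was at −0.26, −1.16 and 0.28. CTNNBIP1, which blocks the binding of β-catenin to TCF factors, was highest in the list at 0.43, 0.13 and −0.19, and CTNNA1, α-catenin, was at 0.10, 0.02 and 0.01. None of these 4 passed in replicates 1 and 2 alone (adjusted p = 0.0669, 0.120, 0.166 and 0.678 in limma, in that order). The 1 gene of the list that passed there (7.14%, beside 13.6% of all probes) was CDC73, a subunit of the PAF1 elongation complex that binds β-catenin. CDC73 was at −0.51, −0.53 and 0.16 (adjusted p = 0.0328 in limma). It was named after its values were seen.

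The genes whose signal followed that of CTNNB1 and APC most closely were sought among 6285 genes with an SD of at least 0.3 over the 9 arrays. CTNNB1 itself would not pass this limit, since its 9 arrays lay within 0.33, so its correlations follow small differences. For CTNNB1 the closest genes were ZNF761, NEDD4 and PTER, with a Pearson r of 0.983, 0.972 and 0.970 over 9 arrays. For APC they were ATAD5, UBE2G2 and MDM1, at 0.995, 0.993 and 0.992. UBE2G2, a ubiquitin conjugating enzyme, was at 9.63, 9.10 and 10.49 in SID, against 10.84, 10.91 and 10.53 in SCR and 10.47, 10.21 and 10.37 in UT, with the first and second SID arrays lowest as for APC. NEDD4, a ubiquitin ligase, was at 10.33, 9.90 and 9.74 in SID, against 10.86, 10.70 and 9.75 in SCR and 10.01, 9.64 and 10.02 in UT. An r above 0.9 was reached by 263 genes for CTNNB1 and 239 for APC. All points share the 2 array sets, so these values describe the arrays and carry no test.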

How the data were processed

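RNA of 9 samples was measured on Affymetrix human gene arrays. The deposited log2 signals, 1 per transcript cluster, were normalized by the authors with Expression Console, RMA and Transcriptome Analysis Console, per the labels, without versions or settings. No source gives the scale, and log2 was inferred from the range. The authors' own program works on single probes and was not rerun on these cluster values.

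Of 33297 probes, 19460 pair with 1 gene symbol in the platform annotation, 1754 with several and 12083 with none. Probes with 1 symbol were compared by lmFit and eBayes of limma 3.58.1 (R 4.3.3) on all 9 arrays without a block, with Benjamini-Hochberg adjustment. Probes were called past 2-fold at an adjusted p of 0.05. The procedure was tested on simulated data with independent noise on each array and no array sets. That test therefore does not show how the fit behaves under the split of these arrays. An exact permutation test of 3 against 3 cannot go below p = 0.1, so none was run, and the number of arrays limits the precision.

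Genes, lists, alternatives and the division into array sets were chosen with earlier results of these data known. Named are all members, the 2 highest and 2 lowest genes of each partner list by SID minus SCR, and the 3 genes most correlated with CTNNB1 and with APC. Same-numbered SID and SCR arrays deviated together from their group means (r = 0.774, 0.575 and 0.791 for replicates 1, 2 and 3), but unlike numbers of one array set did so too (0.748 for SID 1 with SCR 2, 0.604 for SID 2 with SCR 1), so these values follow the set and do not show pairing by number. A replicate block was tried. With UT, same-numbered arrays gave r between −0.07 and 0.21. Other alternatives were array weights, array set as a block, subsets of replicates, other normalizations, filters, probe rules and tests, and leaving out each array. Promoter windows were cut before the start to leave out transcribed bases. Figures were drawn with matplotlib 3.10.9.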

Additional observations from a re-analysis of the deposited data

How the results depend on the processing

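Of the 9 genes, 0 were called in each comparison on all arrays. With array weights 1 was called in each of SID vs SCR, SID vs UT and SCR vs UT, and with replicates 1 and 2 alone 1 was called in SID vs SCR (APC). Leaving out each array in turn gave 0 to 1 called genes in SID vs SCR, the 1 being APC without SID replicate 3. The replicate block, which pairs SID and SCR by number, and the array set as a block gave 0 called genes of the 9 in each comparison. The setting limited to probes above the median signal left out APC and CSNK1G1, so it could not call them. Over all probes, SID vs SCR gave 0 calls on all arrays, 761 with array weights, 859 with replicates 1 and 2 alone, 648 without SID replicate 3 and 223 without SCR replicate 3. A t-test, which the methods name for comparing 2 groups but not for the arrays, gave 0 probes after Benjamini-Hochberg adjustment. At an unadjusted p under 0.05 and without a fold limit it gave 378 of 19460 probes, which is not a count of calls. In the same order of settings, SID vs UT gave 0, 2389, 2593 and, without SID replicate 3, 1946 calls, with 1 under the array set as a block, and SCR vs UT gave 0, 2116, 2217 and, without SCR replicate 3, 1071.

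Several differences turned direction, and the cause was not tested. With replicate 3 alone, SID minus SCR was 0.023 for CTNNB1, 0.0020 for APC, 0.11 for GSK3B, 0.0033 for CSNK1A1, 0.12 for CSNK1G1 and −0.055 for BTRC. SID minus UT was then −0.023 for CTNNB1, 0.054 for APC, 0.17 for GSK3B, 0.082 for CSNK1G1 and −0.040 for BTRC, and SCR minus UT was −0.046 for CTNNB1, −0.0039 for GSK3A and 0.067 for GSK3B. With the array set as a block, SID minus UT was −0.071 for CTNNB1, and SCR minus UT was 0.28 for GSK3B, 0.16 for CSNK1G1 and −0.077 for BTRC. With array weights AXIN1 was at −0.010 for SID minus UT. For SCR minus UT, CSNK1G2 was at 0.089 with replicates 1 and 2 alone and at 0.0020 with each array centred on its median. Leaving out each array in turn, SID minus SCR ran between −0.073 and 0.36 for GSK3A, −0.48 and 0.0105 for CSNK1A1 and −0.0029 and 0.29 for BTRC, and SCR minus UT between −0.077 and 0.0041 for CSNK1G1 and −0.14 and 0.089 for CSNK1G2.

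Results for single genes under the alternatives were counted by direction and by side of the adjusted p threshold. Both were kept by 166 for SID vs SCR, 164 for SID vs UT and 161 for SCR vs UT. In the same order, 12, 16 and 13 kept their direction and passed, and 9, 7 and 13 turned direction. The counts do not measure robustness, because some settings could not move the difference. For CTNNB1, SID minus SCR was −0.073 on all arrays and also without each UT array in turn.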
